A study of Rattus norvegicus with 9 samples.

Results

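Cd40, Cd86, Cd83, Tnfrsf14, Cd274 and Cd200 encode 6 surface molecules through which dendritic cells activate or restrain T cells and other immune cells. They were chosen as a named list, found by the Ensembl ID paired with each symbol, and all 6 were among the 12602 genes tested, of 32545 genes counted. With total lipids (TLs) of the gut bacterium L. johnsonii N6.2 the transcripts of 5 of them rose and that of Cd83 fell, relative to the vehicle control and to α-GalCer alike. With α-GalCer itself no gene of the 6 passed the test against the vehicle control.

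RNA was sequenced from bone marrow-derived dendritic cells (BMDCs) of wild-type Sprague-Dawley rats aged 8 to 12 weeks. All cultures had been grown with rat GM-CSF at 20 ng/mL and human FLT3L at 200 ng/mL and were stimulated on day 7 for 6 h, at 1000000 cells per well. The groups received TLs at 600 ng/mL in PBS, the synthetic glycolipid α-GalCer (KRN700) at 100 ng/mL in DMSO diluted with PBS, or DMSO with PBS as the vehicle control, with 3 libraries each and 9 in all. An effect of the TLs and the absence of DMSO cannot be told apart in this design. These cultures hold several kinds of dendritic cell, so more cells of a type and more RNA per cell cannot be told apart either.

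A naive T cell needs, beside its antigen, a second signal from molecules on the dendritic cell. CD86, a B7 protein, gives that signal through CD28 and is also bound by the inhibitory receptor CTLA-4, while CD40 receives CD40L from helper T cells and licenses the dendritic cell. CD83 marks mature dendritic cells and keeps MHC class II and CD86 at the surface. PD-L1 (Cd274) restrains T cells through PD-1, CD200 restrains myeloid cells through its receptor CD200R, and HVEM (Tnfrsf14) engages the inhibitory receptors BTLA and CD160 as well as the activating ligand LIGHT.

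Library depth lay between 15190820 and 20591105 counts. Levels in CPM are counts set to a common library size, corrected for composition by TMM. Gene lengths were not used here, so levels are compared between libraries and not between genes. DEGs were genes with a Benjamini-Hochberg adjusted p under 0.01 in edgeR's quasi-likelihood test and an absolute log2 fold change over 0.3. The study describes the libraries as independent assays, and the p-values measure the spread between them. On principal components of all genes tested, vehicle replicate 2 stood apart on the second axis, at −32.6 against 14.9 and 15.6 in the other vehicle libraries, and its values for the 6 genes are given with and without it.

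The 4 dendritic cell markers found, of 11 listed, moved in both directions with TLs: Itgax, the integrin CD11c, changed by 0.54 and Ccr7, the lymph node homing receptor, by 0.89 on the log2 scale, while the transcription factor gene Irf8 was at −0.30 and the lectin gene Clec10a at −1.93. Their summed level was 816 to 857 CPM in the vehicle libraries, 753 to 808 CPM with α-GalCer and 1010.0 to 1059 CPM with TLs. Of 6 macrophage and monocyte markers found, of 8 listed, Cd14 rose by 2.43 and Adgre1 by 1.79 on the log2 scale, and Csf1r, Mrc1, Fcgr1a and Mertk fell. Their sum moved from 1993 to 2078 CPM in the vehicle libraries to 3392 to 3417 CPM with TLs, with 1952 to 2019 CPM for α-GalCer. Cd14 carried this rise, from a mean of 450 CPM to 2420 CPM, while the median log2 fold change of the 6 markers was −0.64. The sum therefore does not stand for the list. The part of these shifts in the results on the 6 genes was not tested. Of 5 neutrophil markers 1 was found, Mpo, at 479 to 536 CPM in the vehicle libraries and 468 to 497 CPM with α-GalCer. With TLs it was at 427 to 435 CPM and was not called (adjusted p = 0.0113 in edgeR). The 1 plasmacytoid dendritic cell marker found, Ptcra, was near 0 in all groups and was not tested. B cell, T cell, endothelial and stromal markers carried no symbol in the source used and were not analysed here.

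With TLs 5 of the 6 genes rose and 1 fell against the vehicle control, where 19.4% of all genes tested were DEGs, 9.77% higher and 9.67% lower. The median log2 fold change of the 6 genes was 1.31, against −0.02 over all genes tested. Symbols came from a list of genes that the study had already called against the vehicle control, so a gene without a call there could not have been a member, and the count is not independent evidence. In each of the 6 genes the 3 TL libraries did not overlap the 3 vehicle libraries, which held for 46.1% of all genes tested.

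**Figure D1:**
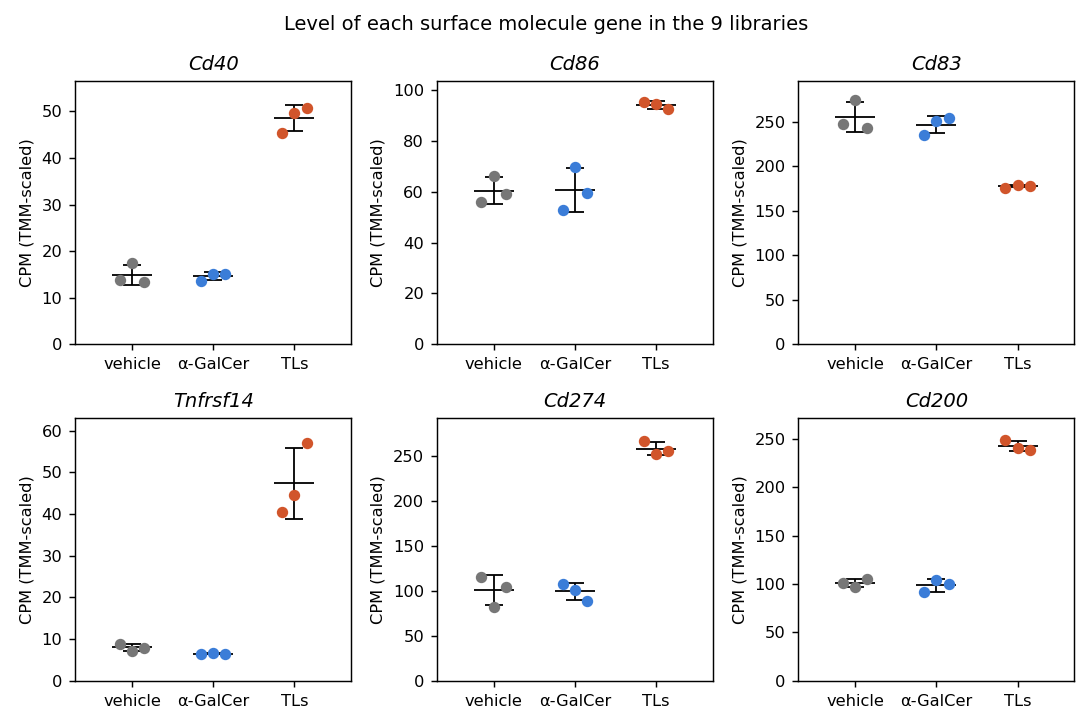
Level of each gene in CPM at the TMM-scaled library size (vertical axis, from 0, a separate scale for each gene) in the vehicle, α-GalCer and TL libraries. Points are the 3 libraries of a group, and the black bars are the mean and SD. The TL points lie above both other groups in 5 panels, as for Tnfrsf14 at 40.6 to 57.0 CPM, and below them for Cd83 at 176 to 179 CPM.

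Among the activating molecules, Cd40 (ENSRNOG00000018488) moved most. It was at 13.8, 17.4 and 13.4 CPM in the vehicle libraries, at 13.6, 15.1 and 14.98 CPM with α-GalCer, and at 45.3, 49.6 and 50.7 CPM with TLs. Every TL library lay above all 6 others, and the 6 others overlapped. The change with TLs was 3.26-fold against the vehicle control (log2 fold change 1.71 ± 0.107 SE, n = 3 per group, adjusted p = 5.58e-07 in edgeR). It was 1.73 on the log2 scale against α-GalCer, with an adjusted p of 4.64e-07 in edgeR. Cd40 ranked at place 173 of the 12602 genes ordered from the highest log2 fold change against the vehicle control. Without vehicle replicate 2, the highest of the control libraries for this gene, the change was 1.84.

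Cd86 (ENSRNOG00000038835), the B7 ligand of CD28 and CTLA-4, rose less. Its level was 55.9, 66.4 and 59.1 CPM in the vehicle libraries, 52.9, 69.7 and 59.5 CPM with α-GalCer, and 95.3, 94.6 and 92.6 CPM with TLs. The TL libraries lay close together, at 94.2 ± 1.40 CPM (SD, n = 3), and above all others, while the α-GalCer libraries spread over 60.7 ± 8.47 CPM (SD, n = 3) and enclosed the vehicle libraries. Cd86 was 1.56-fold higher with TLs than in the vehicle control (log2 fold change 0.64, 95% interval 0.42 to 0.86, adjusted p = 0.000534 in edgeR) and 1.55-fold higher than with α-GalCer (adjusted p = 0.000559 in edgeR). It was 0.71 on the log2 scale without vehicle replicate 2.

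Cd83 (ENSRNOG00000018092), the maturation marker, was the 1 gene that fell. It stood at 248, 274 and 243 CPM in the vehicle libraries, at 236, 251 and 254 CPM with α-GalCer, and at 176, 179 and 178 CPM with TLs. All 3 TL libraries lay below the lowest of the 6 others, and their SD was 0.764% of their mean. Against the vehicle control Cd83 was 1.44-fold lower (log2 fold change −0.52, 95% interval −0.65 to −0.39, adjusted p = 5.84e-05 in edgeR), and against α-GalCer it was 1.39-fold lower (adjusted p = 0.000114 in edgeR). Cd83 fell by 0.47 on the log2 scale when vehicle replicate 2 was left out.

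Of the restraining molecules, Cd274 (ENSRNOG00000016112), which encodes PD-L1, was at 115, 82.3 and 105 CPM in the vehicle libraries, at 108, 101 and 89.0 CPM with α-GalCer, and at 267, 252 and 256 CPM with TLs. The lowest TL library was above the highest other library by more than the whole range of the other 6. Cd274 was 2.56-fold higher with TLs than in the vehicle control (log2 fold change 1.36 ± 0.111 SE, n = 3 per group, adjusted p = 4.95e-06 in edgeR) and 2.60-fold higher than with α-GalCer (adjusted p = 4.15e-06 in edgeR). Its vehicle SD of 16.8 CPM came with the low value of replicate 2, without which the change was 1.23.

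Cd200 (ENSRNOG00000002141), the ligand of the myeloid inhibitory receptor CD200R, was the steadiest of the genes that rose. Its level was 101, 96.5 and 105 CPM in the vehicle libraries, 91.7, 104 and 99.6 CPM with α-GalCer, and 248, 240.4 and 238 CPM with TLs. The control and α-GalCer libraries overlapped and the TL libraries stood clear of them. The change was 2.41-fold against the vehicle control (log2 fold change 1.27 ± 0.0612 SE, n = 3 per group, adjusted p = 6.80e-08 in edgeR) and 2.46-fold against α-GalCer (adjusted p = 5.69e-08 in edgeR). Its residual SD was 0.0659 on the log2 scale, below the median of 0.143 over all genes tested. Over genes with a mean log2 CPM of 4 or more, as Cd200 has, the median was 0.104. Without vehicle replicate 2 the change of Cd200 was 1.24.

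Tnfrsf14 (ENSRNOG00000013820), the HVEM gene, had the largest change of the 6 from the lowest counts. Its raw counts were 152, 128 and 140 in the vehicle libraries, 112, 122 and 120 with α-GalCer, and 784, 649 and 813 with TLs. In CPM these were 8.90, 7.27 and 7.997, then 6.51, 6.64 and 6.54, and then 40.6, 44.5 and 57.0. TL replicate 3 was the highest library for this gene and for Cd40 and not for the other 4. Tnfrsf14 was 5.87-fold higher with TLs than in the vehicle control (log2 fold change 2.55, 95% interval 2.26 to 2.85, adjusted p = 1.47e-07 in edgeR), place 74 of 12602 genes, and 7.20-fold higher than with α-GalCer (adjusted p = 6.56e-08 in edgeR). Without vehicle replicate 2 the former change was 2.48.

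Against α-GalCer, 20.3% of all genes were DEGs, 9.85% higher and 10.5% lower with TLs, and 51% did not overlap between the groups. All 6 genes were called and did not overlap there, 5 higher and 1 lower, with a median log2 fold change of 1.34 against −0.02 over all genes. This comparison shares the TL libraries with that against the vehicle control, so it is no independent repeat. The values per gene lay side by side: 1.71 and 1.73 for Cd40, 0.64 and 0.63 for Cd86, −0.52 and −0.48 for Cd83, 2.55 and 2.85 for Tnfrsf14, 1.36 and 1.38 for Cd274, and 1.27 and 1.30 for Cd200.

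**Figure D2:**
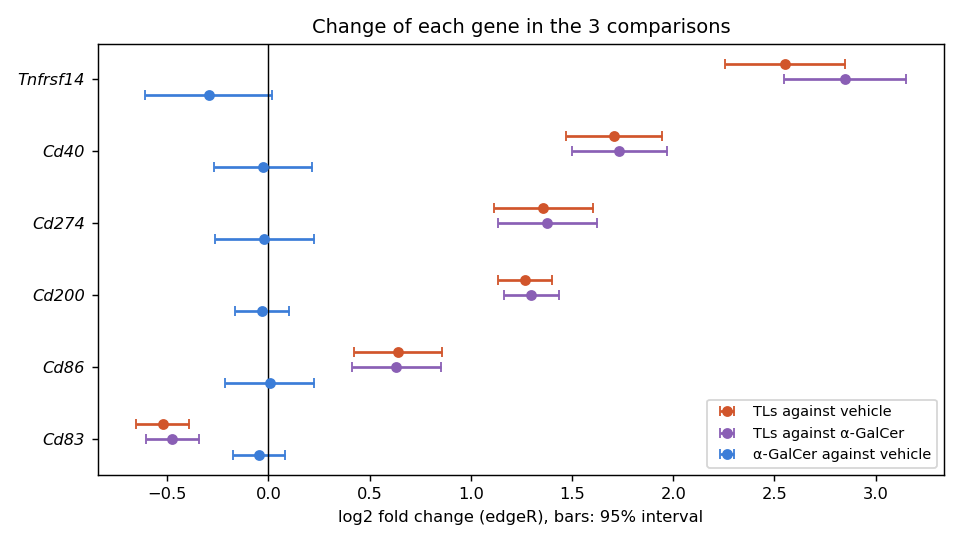
Log2 fold change (horizontal axis) of each gene (rows) in the comparisons of TLs with vehicle, TLs with α-GalCer and α-GalCer with vehicle. Points are edgeR estimates and bars their 95% intervals. All intervals of the TL comparisons lie away from 0, on the negative side only for Cd83, and all 6 intervals of α-GalCer against vehicle include 0.

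α-GalCer, a ligand of iNKT cells when CD1d presents it, is the lipid control of the design. Against the vehicle control none of the 6 genes was called by edgeR, DESeq2 or limma-voom, and in the edgeR test as described none had an unadjusted p under 0.05. Tnfrsf14 went under 0.05 unadjusted in 4 edgeR refits, with no filter on low counts and without vehicle replicate 2, TL replicate 1 or TL replicate 3, and was called in none of them. Over all genes tested the main edgeR fit called 0% as DEGs, with 370 genes at an unadjusted p under 0.05. That count depended on vehicle replicate 2: without it, 1472 of 12786 genes were under 0.05 unadjusted in edgeR, and 1 was a DEG. With all libraries limma-voom called 0 and DESeq2 called 2. The 95% intervals on the log2 scale bound what a change could have been: −0.27 to 0.21 for Cd40, −0.21 to 0.22 for Cd86 and −0.18 to 0.08 for Cd83. For the restraining molecules they were −0.27 to 0.23 for Cd274 and −0.17 to 0.10 for Cd200. For Tnfrsf14, whose product has inhibitory and activating partners, the interval was −0.61 to 0.02. For each of the 6 genes the change measured with TLs lies outside this interval. Tnfrsf14 was the 1 gene of the 6 whose α-GalCer and vehicle libraries did not overlap, 6.51 to 6.64 CPM against 7.27 to 8.90 CPM, a pattern that 6.74% of all genes had. Its log2 fold change was −0.29, with an unadjusted p of 0.0631 and an adjusted p of 0.99994 in edgeR.

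To set activating against restraining transcripts without scaling between libraries, the log2 ratio of counts was taken within each library for all 15 pairs. With 3 libraries against 3 the exact permutation test cannot go below p = 0.1 (two-sided), which is 0.115 after adjustment over the 15 pairs for TLs against the vehicle control and 0.107 for TLs against α-GalCer, so no pair could pass 0.05. A ratio of counts also holds the gene lengths and was read only between groups.

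The ratio of Cd274 to Cd86, PD-L1 over B7-2, was 1.04, 0.31 and 0.82 on the log2 scale in the vehicle libraries, 1.03, 0.54 and 0.58 with α-GalCer, and 1.48, 1.41 and 1.47 with TLs. Each TL library lay above each other library, and the TL libraries differed less among themselves. The mean ratio was 1.66-fold higher with TLs than in the vehicle control (difference 0.73 on the log2 scale, exact permutation p = 0.1, n = 3 per group) and 1.67-fold higher than with α-GalCer. The ratio of Cd200 to Cd86 moved the same way, by 1.54-fold and 1.58-fold. The ratios of Cd274 and of Cd200 to Cd83 were 3.71-fold and 3.45-fold higher with TLs than in the vehicle control. Cd40, an activating molecule, instead gained on Cd200. That ratio was 1.36-fold higher than in the vehicle control and 1.35-fold higher than with α-GalCer, with no overlap in either comparison. Without vehicle replicate 2 the difference of the ratio of Cd274 to Cd86 was 0.52 against the vehicle control.

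Within the activating molecules the proportions shifted as well. The log2 ratio of Cd40 to Cd83 was −4.17, −3.97 and −4.18 in the vehicle libraries, −4.11, −4.05 and −4.08 with α-GalCer, and −1.96, −1.85 and −1.81 with TLs. The TL libraries stood clear of the other 6, among which the α-GalCer values lay inside the vehicle range. The mean ratio was 4.71-fold higher with TLs than in the vehicle control (difference 2.24, exact permutation p = 0.1, n = 3 per group). The ratio of Cd86 to Cd83 was 2.24-fold higher and that of Cd40 to Cd86 was 2.10-fold higher, both with exact p = 0.1.

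The largest difference of the 15 pairs was that of Tnfrsf14 to Cd83, 8.35-fold higher with TLs than in the vehicle control. The ratio of Cd40 to Cd274 was higher with TLs by 0.34 on the log2 scale against the vehicle control, but the libraries overlapped (exact permutation p = 0.4, n = 3 per group). The overlap came from vehicle replicate 2, at −2.24 against −3.06 and −2.97 in the other vehicle libraries and −2.56 to −2.33 with TLs. The difference was 0.60 without that library and 0.19 without vehicle replicate 1. Against α-GalCer it was higher by 0.35 with no overlap (exact permutation p = 0.1, n = 3 per group). The ratio of Cd274 to Cd200 differed by 0.10 and by 0.08, with overlapping libraries and an exact permutation p of 0.6 in both (n = 3 per group). The ratio of Tnfrsf14 to Cd274 was 2.25-fold higher with TLs than in the vehicle control.

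**Figure D3:**
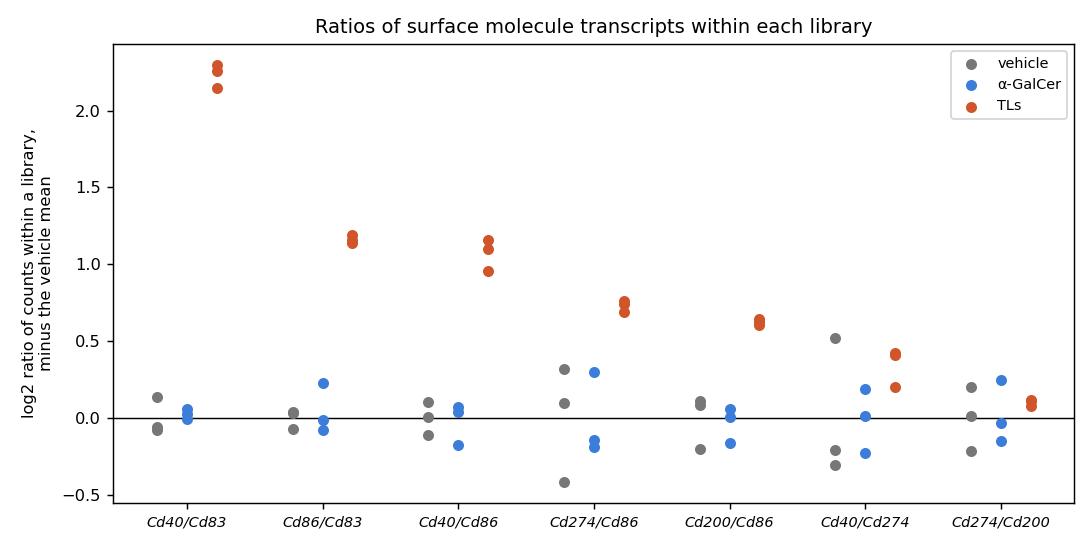
Log2 ratio of the counts of 2 genes within each library, minus the vehicle mean (vertical axis), for 7 pairs (horizontal axis). Points are the 3 libraries of each group. TL points stand clear of the others for the ratio of Cd40 to Cd83, near 2.24, and overlap them for the ratio of Cd274 to Cd200.

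Other molecules of the same kinds were drawn from fixed lists, with the same limit on symbols. A listed gene could be found only if the study had called it against the vehicle control. Counts of genes that rose or fell in these lists are thus not independent evidence. Of 9 B7 and B7-like ligands, 4 carried a symbol, and with TLs 2 rose (Cd274 and Cd86) and 2 fell, with a median log2 fold change of 0.17. Vsir, the inhibitory ligand VISTA, was at 275 ± 12.8 CPM (SD, n = 3) in the vehicle libraries and 150 ± 5.98 CPM with TLs, so the coinhibitory B7 genes did not move as 1 block (log2 fold change −0.87, adjusted p = 2.32e-06 in edgeR). Cd276, which encodes B7-H3, was at −0.30 with an adjusted p of 0.00290 in edgeR, on the threshold, and its call was lost in 10 refits, among them RLE normalization, DESeq2, limma-voom and the leaving out of vehicle replicate 1 or 3, TL replicate 2 or 3 or α-GalCer replicate 2, at −0.31 to −0.26.

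The 3 TNF superfamily ligands found, of 7 listed, all rose against the vehicle control, with a median log2 fold change of 2.34. Tnfsf15, which encodes TL1A, the ligand of DR3, went from 4.56 ± 1.21 CPM (SD, n = 3) to 33.2 ± 0.163 CPM (log2 fold change 2.86, adjusted p = 2.23e-06 in edgeR). Tnfsf9, the ligand of 4-1BB, went from 8.03 ± 1.35 to 16.4 ± 1.15 CPM (log2 fold change 1.03, adjusted p = 0.000288 in edgeR). Tnfsf18, the ligand of GITR, rose by 2.34 on the log2 scale from 12 counts summed over the vehicle libraries to 57 over the TL libraries (adjusted p = 0.00107 in edgeR). All 3 were higher than with α-GalCer too, by 2.62, 0.73 and 1.67. The calls of the last 2 against α-GalCer did not hold in every fit: Tnfsf18 was lost with DESeq2 and without any 1 of the TL or α-GalCer libraries, and Tnfsf9 without TL replicate 2, TL replicate 3, α-GalCer replicate 1 or α-GalCer replicate 2. The 10 receptors and partners listed for the 6 molecules, among them Cd40lg, Btla and Cd200r1, carried no symbol in that source and were not analysed here.

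Of 12 other surface ligands read by T or NK cells, 9 were found, of which 6 rose and 3 fell against the vehicle control. The largest rise was that of Icam1, the adhesion ligand of LFA-1, from 288 ± 11.6 CPM (SD, n = 3) to 850.1 ± 17.8 CPM (log2 fold change 1.56, adjusted p = 6.96e-09 in edgeR). The homophilic receptor gene Slamf6 rose by 1.39, its relative Slamf8 by 0.82, and Pvr, whose product binds DNAM-1 and TIGIT, by 0.85 on the log2 scale. Icam2, another LFA-1 ligand, fell by 1.12 and Slamf9 fell by 1.18. Members of 1 family thus moved in opposite directions, Icam1 against Icam2 and Slamf6 against Slamf9.

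Of 16 genes of CD40, HVEM and NF-κB signalling, 9 were found and all 9 rose relative to both other groups, with a median log2 fold change of 1.13 against the vehicle control. NF-κB dimers are the transcription factors that CD40 and HVEM activate, and several of these genes encode their inhibitors. Nfkbiz, a nuclear co-regulator, rose by 3.00 and Nfkbia, the inhibitor IκBα, by 1.86 on the log2 scale. Among the subunits Nfkb1 rose by 1.29, Nfkb2 by 1.13 and Relb by 0.92, and Birc3, an adaptor-bound ubiquitin ligase, rose by 1.15.

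Of 12 genes of MHC class II presentation and CD86 turnover 1 was found, Ciita, the MHC class II transactivator, at −0.38 on the log2 scale (adjusted p = 0.00649 in edgeR), and this call was lost when any of 7 libraries was left out in turn. Of 13 interferon-gamma and STAT genes 5 were found, and 3 rose (Socs1 by 0.64, Stat3 by 0.57 and the receptor chain Ifngr2 by 0.50). The other receptor chain, Ifngr1, fell by 0.40, and Irf2 was at −0.21 with an adjusted p of 0.0543 in edgeR. No gene of any of these lists was a DEG of α-GalCer against the vehicle control in edgeR.

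**Figure D4:**
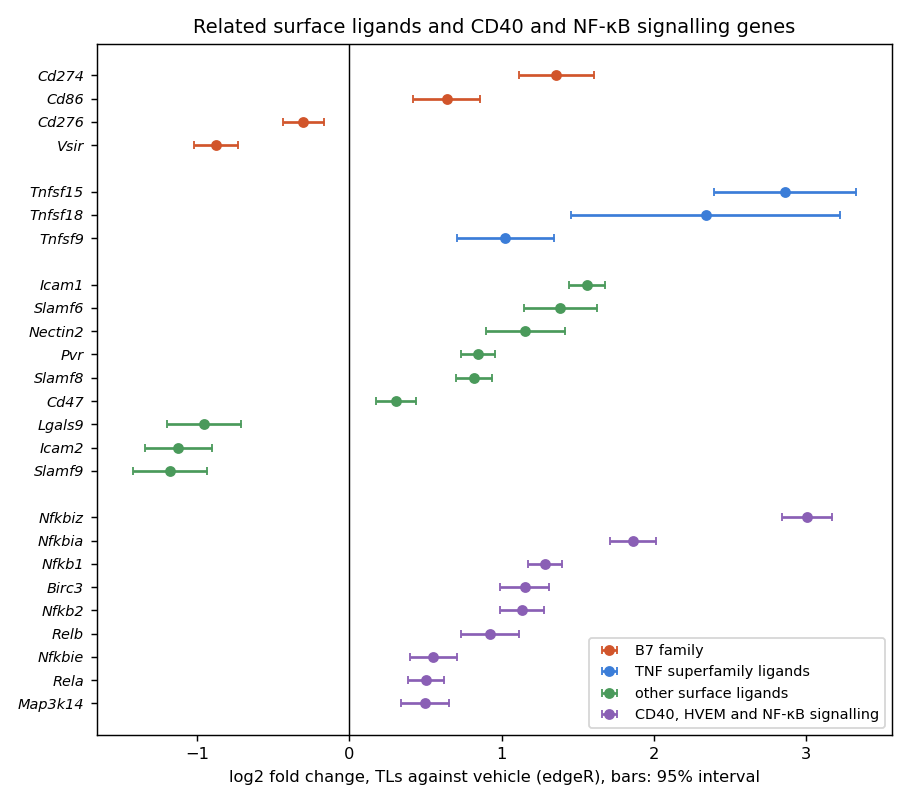
Log2 fold change between TLs and vehicle (horizontal axis) of the genes found in 4 of the lists (rows, coloured by list). Points are edgeR estimates and bars 95% intervals. The NF-κB genes lie between 0.50 (Map3k14) and 3.00 (Nfkbiz), whereas the B7 family and the other surface ligands lie on both sides of 0.

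Across the 9 libraries, the genes with the pattern most like each of the 6 were picked from the 1839 tested genes with a symbol by Pearson's r of log2 CPM. These 1839 genes carry a symbol because the study had called them for TLs against the vehicle control. They were thus picked for a change with TLs, and high r with the 6 genes was built in. The values are given only as a description. Cd40 was most like Ass1, the urea cycle enzyme argininosuccinate synthase, and the stress cytokine gene Gdf15, both with r = 0.999, and Slc3a2, an amino acid transporter chain, with r = 0.998. Cd274 was most like the nucleotide receptor gene P2ry2 (r = 0.999), AC135826.1 and the integrin gene Itgb8 (both r = 0.998). Cd200 was most like the phosphate transporter gene Slc20a1, the Notch ligand gene Jag1 and the kinase gene Mapk6, each with r = 0.998. Tnfrsf14 was most like Rhbdf2, Ralgds and the macrophage growth factor gene Csf1, each with r = 0.997.

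Cd86 had the lowest r with its nearest genes, 0.990 with Polr1e, a subunit of RNA polymerase I, and 0.989 with the GTPase gene Rac2 and with Cd33, a sialic acid-binding receptor gene. For Cd83 the nearest were Laptm5, a lysosomal membrane protein gene, and the lysosomal protease gene Lgmn, both with r = 0.995. Mfge8, a bridge to apoptotic cells, followed with r = 0.994. That such genes share the fall of Cd83 with TLs follows from how they were picked.

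Promoter sequences are given as a description, and whether a motif bears on the change of a gene was not tested. The NF-κB consensus was picked because the NF-κB genes found rose, and these could be found only where the study had called them. The search was chosen after the values had been seen. RefSeq windows on GRCr8, 250 bases before to 50 after a gene's start, were matched by symbol for 4 of the 6 genes. Shown 5′ to 3′ with the NF-κB consensus (either strand) in capitals are Cd83 at chr17:21112628-21112927 on the minus strand, which fell, Cd86 at chr11:77669031-77669330 on the plus strand, which rose least, and Cd274 at chr1:236529982-236530281 on the plus strand, which rose more.
Cd83: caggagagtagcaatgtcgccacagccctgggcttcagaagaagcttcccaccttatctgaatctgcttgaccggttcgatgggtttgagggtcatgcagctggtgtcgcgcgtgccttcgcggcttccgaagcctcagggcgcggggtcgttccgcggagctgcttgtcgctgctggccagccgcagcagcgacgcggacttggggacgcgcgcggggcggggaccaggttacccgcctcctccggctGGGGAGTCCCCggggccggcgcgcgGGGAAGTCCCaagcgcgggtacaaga
Cd86: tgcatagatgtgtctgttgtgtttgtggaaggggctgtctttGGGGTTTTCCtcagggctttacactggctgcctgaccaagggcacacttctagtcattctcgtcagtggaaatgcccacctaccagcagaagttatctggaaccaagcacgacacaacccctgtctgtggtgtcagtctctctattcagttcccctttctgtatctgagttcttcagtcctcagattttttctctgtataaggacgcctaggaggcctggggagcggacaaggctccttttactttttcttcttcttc
Cd274: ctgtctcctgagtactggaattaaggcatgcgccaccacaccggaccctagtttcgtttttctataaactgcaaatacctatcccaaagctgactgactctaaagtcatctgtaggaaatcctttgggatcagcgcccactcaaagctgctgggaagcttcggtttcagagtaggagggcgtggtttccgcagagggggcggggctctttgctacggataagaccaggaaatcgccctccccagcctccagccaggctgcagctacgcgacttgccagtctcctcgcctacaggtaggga

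The Cd83 window held overlapping matches on both strands at its start, between bases −1 and 10 counted from the start site, of which 1 reads GGGAGTCCCC, and a minus strand match, GGGACTTCCC, between bases 25 and 34. The Cd86 window held 1 match, GGGGTTTTCC, between bases −208 and −199. The Cd274 window, and that of Cd200 at chr11:68916065-68916364 on the plus strand, held none. The start sites used lie inside the annotated genes, by 21716 bases for Cd86, 4017 for Cd274, 546 for Cd83 and 115 for Cd200, so the windows need not be those of other annotated starts. Of 33469 promoter windows of the same length 5.02% held a match. The AP-1 motif TGANTCA (7.33% of windows), the GAS motif TTCNNNGAA (8.87%) and the interferon-stimulated response element, GAAA and GAAA with any 2 bases between (3.92%), searched on both strands, were in none of the 4 windows. Matches are letters in a window, not measured binding.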

How the data were processed

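The authors deposited raw counts per Ensembl gene for 9 libraries. Per the methods and labels, mRNA selected with poly-T beads was sequenced paired-end, reads were cleaned with fastp, mapped with HISAT2 to Rnor_6.0 and counted with featureCounts. Their versions and the strand and multi-mapping settings are not given in the sources used here, so reads of overlapping genes on opposite strands cannot be told apart. Symbols came from 1981 IDs of the study's list of called genes, held here without 284 of its rows, and its fold change and p columns were not used.

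The test was the quasi-likelihood F-test of edgeR 4.0.16 (R 4.3.3), after filterByExpr and TMM, in 1 model of all 9 libraries with the group as its term. An SE was derived from each log2 fold change and its F. Ratios used counts plus 0.5 and scipy 1.17.1. Named were the 6 genes, up to 6 genes per list with the smallest adjusted p, and the 3 nearest in pattern per gene. Map3k14 and Cd47 were named after their values were seen. The members and lists were chosen with earlier results of these data known. Scripts were tested on simulated data. Alternatives were other normalizations and filters, DESeq2 1.42.0, limma-voom (limma 3.58.1), the 2 groups alone, a replicate block and each library left out.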

Additional observations from a re-analysis of the deposited data

How the results depend on the processing

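Each of the 6 genes was refitted with 8 alternatives and with each of 9 libraries left out. Direction and call held in 102 of 102 gene fits of TLs against the vehicle control and in 102 of 102 against α-GalCer. The adjusted p was up to 0.00332 and up to 0.00371 over the tests of these fits. DEG counts with each library left out in turn ranged over 1785 to 2706 and 1886 to 3089. Upper quartile scaling moved the split of DEGs to 1002 higher and 1614 lower (1231 and 1219 with TMM) against the vehicle control, and to 1000 higher and 1742 lower (1241 and 1321) against α-GalCer. The count between α-GalCer and the vehicle control was 0 in the main edgeR fit and 2 with DESeq2. In edgeR refits it was 2 with no filter and 0 to 1 with a library left out (1 without vehicle replicate 2). In that comparison near-zero changes crossed 0: Cd86 was at −0.0019 with no filter, and leaving out a library gave −0.11 to 0.10 for Cd86, −0.15 to 0.088 for Cd274, −0.10 to 0.10 for Cd40, −0.080 to 0.0086 for Cd83 and −0.075 to 0.017 for Cd200. The difference in the ratio of Cd274 to Cd200 ranged over −0.0049 to 0.21 against the vehicle control and −0.0049 to 0.19 against α-GalCer, and the cause was not tested.

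Among the listed genes, calls were lost against the vehicle control for Cd276, Cd47 and Ciita (23 gene fits, while 469 kept the call or its absence). Against α-GalCer 40 gene fits lost one, for Tnfsf9, Tnfsf18, Ciita, Irf2 and Socs1, 2 gained one, for Cd276 and Cd47, and 450 did neither. Same-numbered libraries deviated together with r between −0.06 and 0.12, over 0.1 in 1 of 9 pairs. They correlated best with their own number in 10 of 18 looked at, with 3 libraries to choose from each time. These values do not settle whether the numbers pair the samples. The main model took no pairing, and a fit with the numbers as a block is given beside it. With the replicate block DEGs numbered 2256 and 2332, with 0 for α-GalCer against the vehicle control, and Cd86 was at 0.65. The block changed no call of the 6 genes. The limits are 3 libraries a group, a mixed culture, a solvent that differs between TLs and the other groups, and symbols only for genes the study had called. All levels here are of RNA and not of protein at the surface. In the study's flow cytometry after 6 h with TLs, at another dose, surface CD40 and CD86 were not reported to rise. Surface ICAM-1 was reported to rise with TLs, and surface CD86 to fall only with the phospholipid fraction, which was not sequenced.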

Other observations

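The 6 libraries without TLs varied among themselves in a way that differed from gene to gene. Vehicle replicate 2 had the highest Cd40 (17.4 CPM) and Cd83 (274 CPM) of these 6 libraries and the lowest Cd274 (82.3 CPM). α-GalCer replicate 1 had the lowest Cd86 (52.9 CPM) and Cd83 (236 CPM) of the 6 and the second highest Cd274 (108 CPM). The SD within the vehicle group was 16.7% of the mean for Cd274 and 15.1% for Cd40 but 4.10% for Cd200. Within the TL group it was 18.1% for Tnfrsf14 and 5.85% for Cd40, and under 3% for Cd83, Cd86, Cd274 and Cd200. These are values of single libraries, and whether they come from the cultures or from the preparation was not tested.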
